A study of Mus musculus with 16 samples.

Results

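The Rab GTPase mRNAs of NIH/3T3 cells, a mouse fibroblast line, were followed between protrusions and cell bodies. Members were the genes of the deposited table whose whole name is Rab followed by a number and at most a letter and a digit, which leaves out Rab effectors and regulators. This rule found 43 genes among the 13015 listed, and Rab13 was set against the other 42. All cells were serum-starved, allowed 2 h on filters whose pores were 3.0 µm wide and exposed from below for 1 h to lysophosphatidic acid (LPA), a lipid that attracts fibroblasts, before fixation in 0.3% paraformaldehyde for 10 min. Protrusions (Ps) were collected from under the filter and cell bodies (CB) from above it. Cells carried either a control siRNA (siControl) or siRNA that lowers Apc, the mouse gene of the adenomatous polyposis coli tumor suppressor (siAPC). More than one Apc siRNA was in use, and which of them these libraries received is not clear from the labels. Each siRNA and fraction (siControl CB and siControl Ps, siAPC CB and siAPC Ps) held 4 libraries, described by the study as independent replicates. A knockdown by siRNA leaves part of the target RNA, and a Ps fraction is an enrichment and not a pure compartment.

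Rab proteins are small GTPases that sit on the membranes of vesicles and organelles and direct their formation, transport, tethering and fusion. They are switched on by guanine nucleotide exchange factors (GEFs), switched off by GTPase-activating proteins (GAPs), held in the membrane by prenyl groups, and extracted from it by GDP dissociation inhibitors (GDIs). Rab13, of the same branch as Rab8a, Rab8b and Rab10, acts in traffic to the cell surface and in the remodeling of cell junctions and actin, and its mRNA is known to be concentrated in fibroblast protrusions.

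Rab13 (ENSMUSG00000027935.14) is a protein-coding gene on chromosome 3 from 90213695 to 90226385 (GRCm38, plus strand). Its principal transcript in GENCODE M21 has 1107 bases, of which 386 form the 3′UTR. Purines (A and G) made up 61.7% of this 3′UTR, against 46.7% for Rab8a, 47.4% for Rab8b and 45.4% for Rab10. Among 10881 listed genes with a 3′UTR of at least 100 bases, whose median was 48.5%, 0.276% had a share at least as high as that of Rab13. The other Rab members with such a 3′UTR reached at most 52.6%. Because the 3′UTR sets Rab13 apart from its relatives in composition, the most purine-rich stretch of 30 bases is shown for Rab13, Rab8a and Rab8b, with purines in capitals. They lie, in the same order, at chr3:90225722-90225751 (plus strand), chr8:72181982-72182011 (plus strand) and chr9:66845224-66845253 (minus strand) of GRCm38.
Rab13: GGAAGAAAGGGGcAGGGAAAGGAGGGGGAG
Rab8a: tGGAAGAtGGGGAGtGGGtGAGGAAGAcAA
Rab8b: GAGAGAGAGAGAGAGAGAGAGAGAGAGAGA
The Rab13 stretch held 29 purines of 30, mostly G in runs separated by A. A stretch at least as rich in purines was found in 5.85% of the 10881 genes. A longer 3′UTR holds more stretches of 30 bases, and that of Rab8b has 4055 bases against 386 for Rab13. Length was not taken into account, so the 5.85% cannot be ranked against the 0.276% of the whole 3′UTR. The Rab8b stretch was a pure GA repeat. These are descriptions of sequence, and no site was tested.

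Reads in listed genes ranged from 13466225 to 20296087 per library, and 3 reads correspond to a log2 value between -2.73 and -1.80. Values are log2 CPM, the log2 of reads relative to library size, taken from the deposited table. Apc fell by 1.67 in CB and by 1.84 in Ps on the log2 scale with siAPC (limma, adjusted p = 0.000142 and 3.11e-05). Of 8 fibroblast markers 7 were listed, with Vim and S100a4 abundant, Fap not in the table and Thy1 at 1 to 13 reads per library. Of 7 markers of other cell types 3 were listed, with Pecam1 at 0 to 12 reads, Cdh1 at 24 to 50 reads and Des at 130 to 269 reads. The summed level of these 3 was 9.34 to 12.5 CPM in siControl CB, 13.4 to 17.1 in siControl Ps, 10.5 to 12 in siAPC CB and 13.4 to 16.6 in siAPC Ps. The 3 nuclear RNAs Malat1, Neat1 and Kcnq1ot1 summed to 644 to 897 CPM in siControl CB and 127 to 309 in siControl Ps, and to 423 to 574 in siAPC CB and 105 to 239 in siAPC Ps. Fibroblast markers summed to 34795 to 38211 CPM in siControl CB and 21678 to 23852 in siControl Ps, and to 45552 to 50162 in siAPC CB and 26686 to 29111 in siAPC Ps. The fractions thus differed, without overlap of libraries, in nuclear RNAs, fibroblast markers and the few markers of other cell types, and also in the mitochondrial share of reads, at 1.39% to 1.95% in siControl CB against 2.65% to 4.16% in siControl Ps and 1.37% to 1.63% in siAPC CB against 2.18% to 2.86% in siAPC Ps. The part of these in the Rab values was not tested. A library of each group had low values for GC-rich genes relative to its group mean: siControl CB replicate 3, and replicate 2 of siControl Ps, siAPC CB and siAPC Ps (here the 4 GC-trend libraries). Across genes, the Spearman correlation of these deviations with GC content was -0.66 to -0.54 in these 4 and -0.04 to 0.54 in the other 12.

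Ps was first compared with CB to see which Rab mRNAs are concentrated in protrusions. Rab13 stood at the top of the family. In siControl CB its log2 values were 3.70, 3.85, 3.53 and 3.92 in replicates 1 to 4, from 218 to 280 reads. In siControl Ps they were 6.62, 6.41, 6.20 and 6.09, from 969 to 1222 reads. All Ps libraries lay far above all CB libraries, with no overlap. This was a log2 fold change of 2.58 (SE 0.10, limma adjusted p = 1.12e-12), a 5.98-fold higher level in Ps, and it was the 34th highest of all 13015 genes. In siAPC CB the values were 3.96, 3.75, 3.81 and 3.82 and in siAPC Ps 5.98, 5.95, 6.01 and 6.0. The siAPC fractions were as clearly apart, with a log2 fold change of 2.15 (SE 0.10, limma adjusted p = 3.9e-11), a 4.43-fold higher level. Rab13 was called in both siRNAs under all 25 alternatives, with values from 2.23 to 2.66 in siControl and 1.84 to 2.20 in siAPC.

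The nearest relatives of Rab13 rose in Ps too, by much less. Rab8a, which carries cargo from the Golgi and recycling endosomes to the cell surface and cilium, had 6.34 to 6.54 in siControl CB and 6.64 to 6.86 in siControl Ps. The Ps/CB value on the log2 scale was 0.27 (SE 0.06, limma adjusted p = 0.00091) in siControl and 0.23 (adjusted p = 0.00266) in siAPC. Rab8b, the other Rab8 gene, was the least abundant of the relatives, with 89 to 204 reads per library, and gave 0.80 (SE 0.15, adjusted p = 0.000176) and 0.90 (adjusted p = 5.59e-05). Rab10, known for exocytosis of glucose transporters, gave 0.31 (SE 0.07, adjusted p = 0.000618) and 0.34 (adjusted p = 0.000272). In all 3 the lowest Ps library was above the highest CB library in each siRNA. With libraries scaled to their listed reads, Rab8a moved to -0.03 in siControl and 0.08 in siAPC and Rab10 to 0.01 and 0.19, none of them called, while the median of all genes in siControl moved from 0.00 to -0.30. After a loess correction for GC content and length, Rab8a was at 0.49 and 0.44, Rab8b at 0.46 and 0.37, and Rab10 at 0.14 and 0.066, the last no longer called (adjusted p = 0.297).

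**Figure D1:**
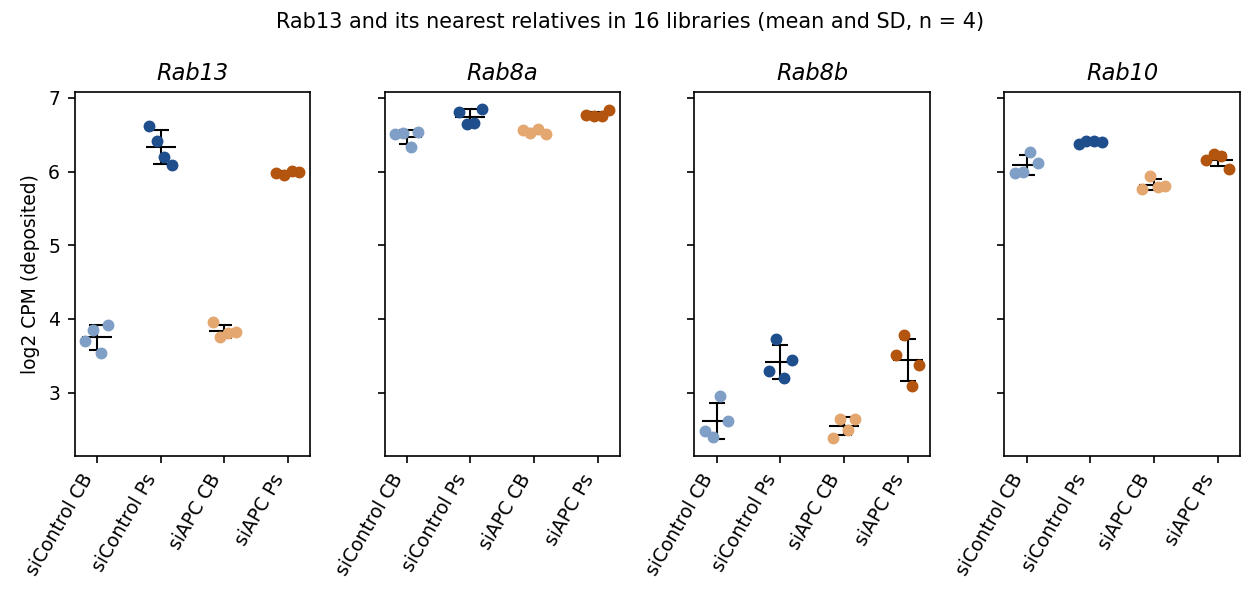
Log2 CPM as deposited (y axis, shared) of Rab13, Rab8a, Rab8b and Rab10 in the 4 groups (x axis), with a point for each library and the mean and SD (n = 4) in black. Rab13 rises from 3.53 to 3.92 in siControl CB to 6.09 to 6.62 in siControl Ps, while the steps of Rab8a, Rab8b and Rab10 are all below 1.

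The difference between Rab13 and each relative was tested within libraries, which removes any scaling between libraries. Rab13 less Rab8a was -2.73 ± 0.09 (SD, n = 4) in siControl CB and -0.41 ± 0.26 (SD, n = 4) in siControl Ps, a shift of 2.32 (exact two-sided permutation test, p = 0.0286, adjusted over 9 tests p = 0.0429). These values are in log2 CPM and not per length, so they give the shift between fractions and not which of the mRNAs is more abundant. Against Rab8b the shift was 1.78 and against Rab10 it was 2.27, with the same p-values from the exact permutation test. In siAPC the shifts were 1.91 against Rab8a, 1.25 against Rab8b and 1.81 against Rab10, again each with an exact permutation p of 0.0286, the smallest that 4 against 4 libraries can give. These tests do not use the replicate pairs, although siAPC CB and siAPC Ps libraries of the same number varied together, and a paired sign-flip test over 4 pairs, which cannot pass, gave an adjusted exact permutation p of 0.141 for each shift. By these values Rab13 shifted toward Ps by 2.37-fold to 4.98-fold more than these relatives did.

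Across the family, 18 of 43 members were higher in siControl Ps (41.9%, against 29.1% of all genes) and 7 were lower (16.3%, against 31.2% of all genes). The median log2 fold change was 0.19 in the family and 0.00 over all genes. In siAPC 17 were higher, against 29.8% of all genes, and 6 were lower, against 30.9%, and 15 higher and 5 lower members were the same in both siRNAs. With libraries scaled to their listed reads, 7 members were higher (against 15.4% of all genes) and 18 lower (against 47.6%) in siControl, and 9 were higher (against 21.5%) and 12 lower (against 39.3%) in siAPC, with Rab13 higher in both. Enrichment was also counted by the threshold of the study, a change above 2-fold with p under 0.05, the p being taken here as unadjusted. By that rule 2 members were Ps-enriched in siControl, Rab13 and Rab37, against 7.19% of all genes, and 1 was CB-enriched, Rab44, against 6.82%. In siAPC the Ps-enriched members were Rab13 and Rab27b, against 7.67% of all genes, and the CB-enriched member was Rab42, against 5.05%. Rab13 was the only member to pass that rule in both siRNAs. The other 4 that passed it in 1 siRNA had at most 39 reads in any library, against 218 to 1223 for Rab13.

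Rab37, Rab27b, Rab42 and Rab44 were close to the detection limit. Rab37, linked to secretory granules, had 3 to 5 reads in siControl CB and 5 to 9 in siControl Ps, with a log2 fold change of 1.20 (SE 0.38, limma adjusted p = 0.0115), against 0.45 (adjusted p = 0.328) in siAPC. Rab27b, a Rab of secretory lysosomes and exosomes, had 6 to 24 reads per library. It gave 0.72 in siControl (limma adjusted p = 0.0914, or 0.0372 with a replicate block) and 1.06 (SE 0.36, adjusted p = 0.0167) in siAPC. Without siAPC CB replicate 4 the siAPC value was 0.92 (adjusted p = 0.054). After a loess correction for GC content and length it was 0.36 (adjusted p = 0.38). Rab44, an atypical long Rab, gave -1.21 (SE 0.31, adjusted p = 0.00216) in siControl, with 15 to 25 reads in CB and 2 to 9 in Ps, and -0.38 (adjusted p = 0.3) in siAPC. Rab42 gave -1.39 (SE 0.56, adjusted p = 0.0397) in siAPC, where replicate 2 of Ps had 0 reads, and -0.62 (adjusted p = 0.174) without that library. With a replicate block Rab42 was no longer called (adjusted p = 0.0604).

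**Figure D2:**
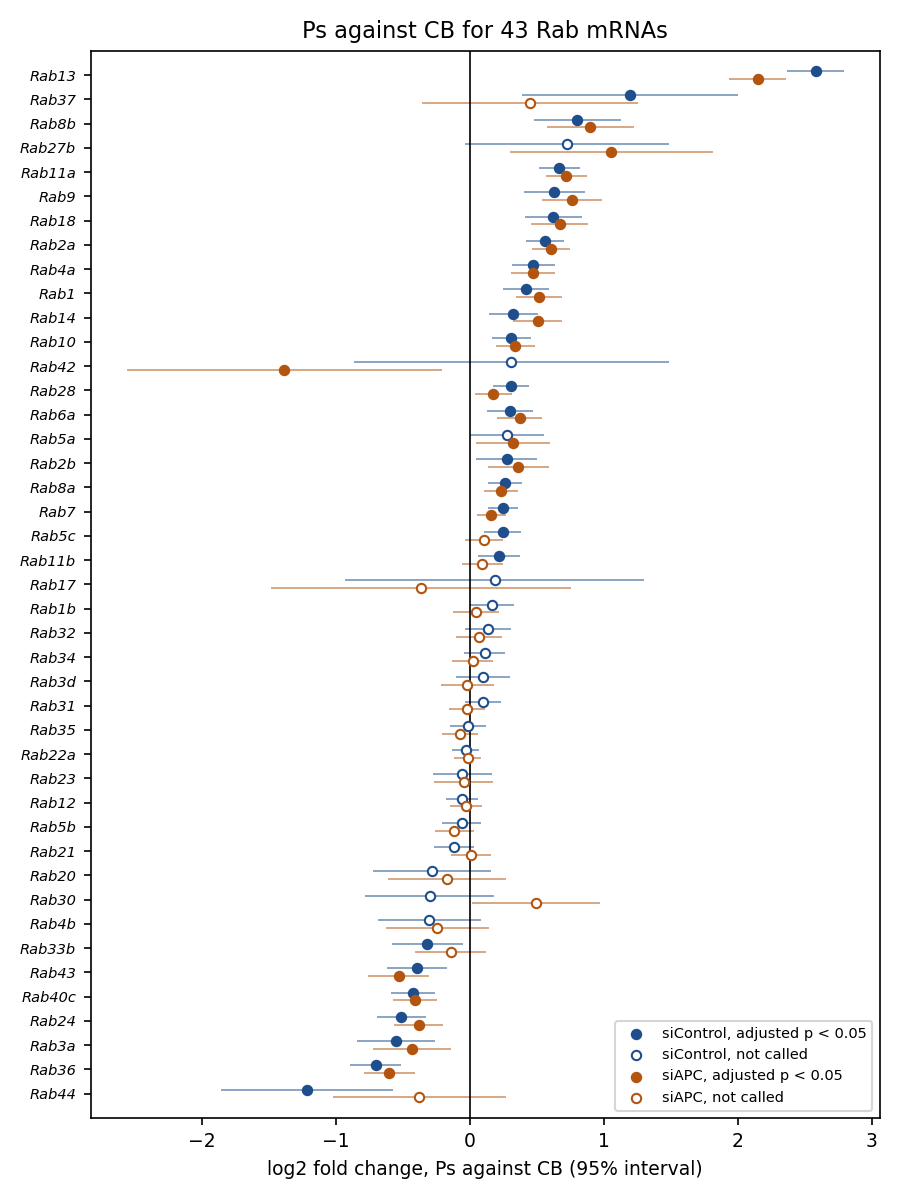
Log2 fold change of Ps against CB (x axis, bars are 95% intervals of limma) for the 43 Rab mRNAs (y axis, ordered by siControl), in siControl (blue) and siAPC (orange), filled where the adjusted p was below 0.05. Rab13 lies at 2.58 and 2.15, and among the members below it the wide intervals are those of genes with few reads, such as Rab42 and Rab17.

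Members were also counted by role, against 29.1% of all genes higher and 31.2% lower in siControl Ps, and differences between roles were not tested. Of 8 measured members in traffic to the cell surface 5 rose in siControl Ps (Rab13, Rab37, Rab8b, Rab10 and Rab8a) and 1 fell, Rab3a, a Rab of regulated exocytosis, at -0.55 (SE 0.14, limma adjusted p = 0.00217). Of 14 members of endocytosis and recycling 5 rose and 0 fell. The highest of them was Rab11a, the Rab of the recycling endosome, at 0.67 (SE 0.07, adjusted p = 2.68e-07), with 5.72 to 5.93 in siControl CB and 6.47 to 6.64 in siControl Ps. With scaling to listed reads (15.4% of all genes higher and 47.6% lower), only Rab11a of these 14 was called higher, at 0.37. Rab20, Rab21, Rab22a, Rab31, Rab35, Rab4b and Rab5b were then called lower. The early endosome Rabs, whose differences from each other were not tested, had Rab5c at 0.24 (adjusted p = 0.00426), Rab5a at 0.28 (adjusted p = 0.0766, or 0.0376 with a replicate block) and Rab5b at -0.06 (adjusted p = 0.459). Rab5a turned to -0.17 (limma adjusted p = 0.143) after the loess correction and to -0.020 (adjusted p = 0.921) with scaling to listed reads. Of 4 late endosome and lysosome members 2 rose, Rab9 at 0.63 (adjusted p = 5.1e-05) and Rab7 at 0.25 (adjusted p = 0.000423), and Rab24, linked to autophagy, fell by 0.51 (adjusted p = 4.92e-05). Rab9 was at 0.16 (adjusted p = 0.0666) after the loess correction, and with scaling to listed reads Rab5c was at -0.053 and Rab7 at -0.050, neither called.

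Of 11 members of the ER and Golgi 5 rose and 3 fell. Rab18, of the ER and lipid droplets, and Rab2a, of ER to Golgi transport, were highest at 0.62 (limma adjusted p = 3.15e-05) and 0.56 (adjusted p = 7.28e-07). After the loess correction they were at 0.29 and 0.21, and with scaling to listed reads at 0.33 and 0.27, each still called. Rab36, a Golgi Rab, was the lowest of all well-read members. It had 3.98, 4.10, 4.01 and 4.23 in siControl CB and 3.35, 3.24, 3.56 and 3.36 in siControl Ps, a log2 fold change of -0.70 (SE 0.09, adjusted p = 1.62e-06), and -0.60 (adjusted p = 1.22e-05) in siAPC. All Ps libraries of Rab36 were below all CB libraries. Of the 6 remaining members, of the cilium and other roles, 1 rose, Rab28 at 0.31, and 2 fell, Rab40c at -0.42 and Rab44 at -1.21. After the loess correction these were at -0.10, -0.07 and -0.68 (limma adjusted p = 0.235, 0.353 and 0.0665), so that none of the 3 was called. Rab24 shares 62.4% of its exonic bases with Prelid1 on the opposite strand, and Rab43 shares 75.4% with Gm45140 on its own strand. Rab2b shares 59.3% with Gm43766 on the opposite strand, and Rab4b shares 65.0% with Gm21983 on its own strand. Reads of these pairs may not have been told apart.

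The Ps/CB values of the family correlated with the GC content of the transcripts, and a correlation with transcript length is not given here. Across the 43 members the Spearman correlation of the log2 fold change with transcript GC content was -0.50 in siControl and -0.72 in siAPC, and across 12874 genes it was -0.33 and -0.44; genes are not independent replicates. After the loess correction for GC content and length, 18 members were again higher in siControl Ps (against 27.3% of all genes), but only 11 of them were among the 18 before. In siAPC 12 members were higher after the correction, and 6 of them were among the 17 higher before it. The share of all genes that kept a call through the correction is not given here, so these overlaps are no result about the members. Rab11a, with 39.5% GC, went from 0.67 to 0.04 (limma adjusted p = 0.794), and Rab43, with 56.4% GC, went from -0.39 to 0.17 (adjusted p = 0.025). GC content and length were corrected together, and their parts in these shifts were not told apart. At similar GC content, Rab11b (48.1% GC, 6109 bases) went from 0.22 to 0.43 in siControl. Rab12 (48.4% GC, 2010 bases) went from -0.06 to -0.20. Rab13, with 53.1% GC, stayed far out at 2.23 (SE 0.08), above every other member, the next being Rab37 at 1.30 and Rab8a at 0.49 (SE 0.06). Rab36 and Rab24 kept their calls as lower, at -0.35 and -0.67.

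On a scale per transcript length (log2 RPKM, from the principal transcript), Rab1b, Rab5c and Rab7 were the most abundant members in every group. Rab27b, Rab17 and Rab37 had the lowest levels averaged over the 4 groups. Within siControl the lowest was Rab30, at -3.37 in CB and -3.67 in Ps. Rab13 had a mean of 3.60 ± 0.17 (SD, n = 4) in siControl CB, at rank 22 of 43. Its libraries there overlapped those of Rab6a and Rab32 just below it and not those of Rab4a just above it. In siControl Ps it had 6.18 ± 0.23 (SD, n = 4), at rank 5, behind Rab1b, Rab5c, Rab7 and Rab34, and its libraries overlapped those of Rab2a at rank 6. In siAPC Rab13 was at rank 22 in CB with 3.69 ± 0.09 (SD, n = 4), apart from its neighbours Rab10 and Rab22a, and at rank 6 in Ps with 5.84 ± 0.03 (SD, n = 4), between Rab2a and Rab1, whose libraries both overlapped its own. No other member changed its place by so many ranks.

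As a share of the length-scaled reads of all 43 members, Rab13 made up 1.01% ± 0.09 (SD, n = 4) of the family in siControl CB and 5.13% ± 0.83 (SD, n = 4) in siControl Ps. With siAPC the shares were 1.10% ± 0.06 (SD, n = 4) and 4.31% ± 0.06 (SD, n = 4). Such a share does not depend on scaling between libraries. Every Ps library was above every CB library, and the lowest siControl Ps library, at 4.33%, lay within the siAPC Ps range of 4.24% to 4.38%. Rab1b, which acts between the ER and the Golgi, remained the most abundant member in all 16 libraries. The family as a whole took 0.317% ± 0.004 (SD, n = 4) of listed reads in siControl CB and 0.298% ± 0.017 (SD, n = 4) in siControl Ps, where replicate 1 was lowest at 0.273%, and 0.311% ± 0.004 (SD, n = 4) in each siAPC fraction.

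**Figure D3:**
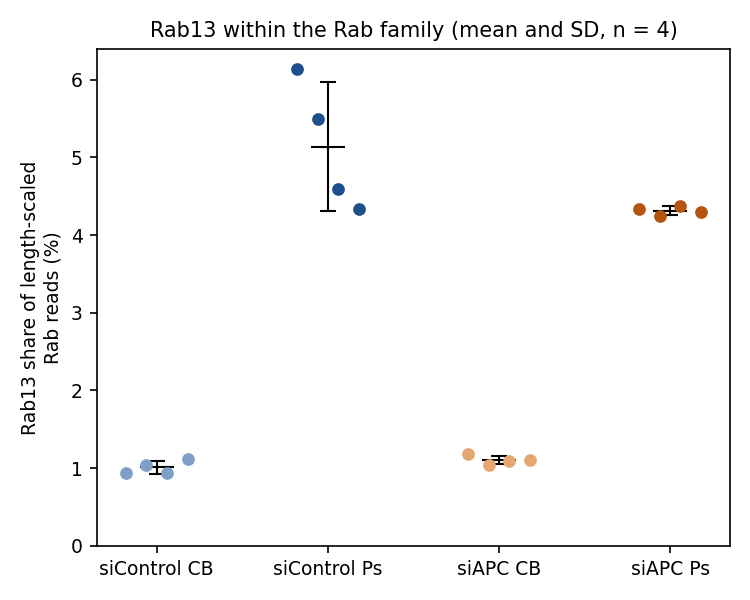
Share of Rab13 in the length-scaled reads of the 43 Rab mRNAs (y axis, percent) by group (x axis), with a point for each library and the mean and SD (n = 4) in black. CB libraries sit between 0.937% and 1.18%, and Ps libraries between 4.24% and 6.13%, with the widest spread in siControl Ps.

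The interaction, the Ps/CB value in siAPC less that in siControl, asked whether the distribution of a Rab mRNA depended on Apc. Of 43 members 0 were called (limma with Benjamini-Hochberg adjustment), against 0.0231% of all genes called in either direction. At an unadjusted p below 0.05, 1 member was higher and 2 were lower, the latter being Rab13 and Rab42, where 269 of the 13015 genes were higher and 223 lower. Rab13 had an interaction of -0.43 (SE 0.14, 95% interval -0.73 to -0.13), with an unadjusted p of 0.00689 and an adjusted p of 0.981 in limma. Its Ps/CB value was thus 74.1% of that in siControl. Per replicate pair it was 2.92, 2.57, 2.67 and 2.17 in siControl and 2.02, 2.20, 2.20 and 2.18 in siAPC. It was lower with siAPC in 3 of 4 same-numbered pairs, and replicate 4 showed no such step.

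Against its relatives the interaction of Rab13 was -0.40 with Rab8a, -0.53 with Rab8b and -0.46 with Rab10. The exact two-sided permutation test over 4 against 4 pairs gave p = 0.114, 0.2 and 0.0857, and adjusted over 9 tests p = 0.129, 0.2 and 0.11. None passed. Rab8a, Rab8b and Rab10 themselves had interactions of -0.03, 0.10 and 0.03 in limma, none of them called. The siControl pairs of Rab13 less Rab8a spread widely, at 2.32 ± 0.32 (SD, n = 4), and those of siAPC narrowly, at 1.91 ± 0.09 (SD, n = 4). Without replicate 4 of either siControl fraction the differences against Rab8a and Rab10 were -0.55 and -0.59 and passed (exact permutation test, adjusted over 9 tests p = 0.0321). Over all omissions of 1 library the values ran from -0.55 to -0.30 and from -0.59 to -0.38, with adjusted exact permutation p up to 0.161. The difference against Rab8b ran from -0.71 to -0.32 and passed in none (lowest adjusted exact permutation p = 0.143). The pairs share a replicate number, and in siControl libraries with the same number did not all vary together.

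The comparison of siAPC with siControl within a fraction asked how the level of each Rab mRNA responded to the knockdown. In CB 2 members rose, against 7.52% of all genes, and 5 fell, against 5.87%. In Ps 4 rose, against 10.7% of all genes, and 7 fell, against 11.2%. Called in both fractions were Rab30 and Rab20, which rose, and Rab3d, Rab10 and Rab12, which fell. In CB Rab14 and Rab24 fell as well, by 0.29 and 0.30, and in Ps Rab44 and Rab21 rose while Rab13, Rab1b, Rab31 and Rab42 fell. With libraries scaled to their listed reads, 2 rose and 3 fell in CB (against 8.41% and 5.12% of all genes) and 10 rose and 1 fell in Ps (against 22.6% and 4.23%). With quantile normalization 5 rose and 3 fell in Ps, against 11.4% and 10.8% of all genes. The counts of 5 lower in CB and 7 lower in Ps dropped to as few as 2 and 3 when single libraries were left out, so the small decreases are less certain than those of Rab3d. Of the 16 fits that each left out 1 library, Rab14 and Rab24 in CB lost their calls in 5 each, and in Ps Rab1b lost its call in 13, Rab21 in 11, Rab42 in 9, Rab31 in 5 and Rab12 in 5. The Ps value of Rab42, at -1.64, was -0.88 (limma adjusted p = 0.115) without siAPC Ps replicate 2, which had 0 reads. The CB and Ps comparisons have no library in common. They share the same estimate of the spread, and siAPC CB and siAPC Ps libraries of the same number varied together. Calls in both fractions are therefore not independent.

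The largest rise was that of Rab30, a Rab of the Golgi that few reads covered. It had -0.43, -0.13, -0.41 and 0.46 in siControl CB and 1.25, 1.37, 1.41 and 1.43 in siAPC CB, from 12 to 25 reads before and 47 to 51 after. In Ps it had -0.55, -0.91, -0.28 and 0.03 with siControl and 1.74, 1.76, 1.85 and 2.08 with siAPC. All siAPC libraries were above all siControl libraries in each fraction. Rab30 rose by 1.49 (SE 0.23, limma adjusted p = 0.000161) on the log2 scale in CB and by 2.29 (SE 0.23, adjusted p = 8.25e-07) in Ps. Rab20, linked to endosomes and phagosomes and also read few times, rose by 0.83 (SE 0.21, adjusted p = 0.0116) in CB and 0.94 (SE 0.21, adjusted p = 0.00296) in Ps, and the CB value was 0.65 (adjusted p = 0.0758) once the 4 GC-trend libraries were left out. Rab20 shares 25.6% of its exonic bases with a gene on the opposite strand. Rab44 gave 0.88 (adjusted p = 0.0641) in CB and 1.72 (SE 0.31, adjusted p = 0.000444) in Ps, from 2 to 9 reads with siControl and 18 to 26 with siAPC.

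Rab3d, a Rab of secretory granules, fell most among well-read members. It had 5.06, 5.15, 4.98 and 5.08 in siControl CB and 4.25, 4.08, 4.15 and 4.07 in siAPC CB. In Ps it had 5.19, 4.87, 5.35 and 5.26 with siControl and 4.09, 3.93, 4.28 and 4.16 with siAPC. The groups were fully apart in each fraction, and Rab3d fell by 0.93 (SE 0.10, limma adjusted p = 1.45e-06) in CB and by 1.05 (SE 0.10, adjusted p = 2.45e-07) in Ps, to 52.4% and 48.3% of control. Its Ps/CB value as deposited was near 0 in both siRNAs, at 0.10 and -0.02. After the loess correction for GC content and length it was called higher in both. It was then 0.47 (limma adjusted p = 1.8e-05) in siControl and 0.37 (adjusted p = 0.000279) in siAPC. Rab10 fell by 0.27 (limma adjusted p = 0.0125) in CB and 0.24 (adjusted p = 0.0176) in Ps. Rab12, counted above with the cilium and other roles, fell by 0.21 (adjusted p = 0.0182) and 0.19 (adjusted p = 0.0278). With libraries scaled to their listed reads, under which the median of all genes in Ps moved from -0.02 to 0.14, the Ps values of Rab10 and Rab12 were -0.07 and -0.02 and no longer called, and Rab10 in CB was -0.24 (adjusted p = 0.081). Without siAPC Ps replicate 4, Rab10 in Ps was -0.19 (adjusted p = 0.0666). Rab12 in CB had an adjusted p of 0.0546 to 0.0661 without any of 4 libraries, siAPC CB replicate 2 or siControl CB replicate 1, 2 or 4, in turn.

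Rab13 itself did not pass in CB, where siAPC less siControl was 0.09 (SE 0.10, 95% interval -0.13 to 0.30, limma adjusted p = 0.645). In Ps it fell by 0.35 (SE 0.10, adjusted p = 0.018), to 78.6% of control. The siAPC Ps libraries, at 5.95 to 6.01, lay below all siControl Ps libraries, at 6.09 to 6.62, and were much closer together. Without siControl Ps replicate 1, the highest library, the value was -0.25 (adjusted p = 0.0732), and with libraries scaled to their listed reads it was -0.18 (adjusted p = 0.12). Rab13 was the third lowest of 43 members in this comparison, after Rab42 and Rab3d.

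**Figure D4:**
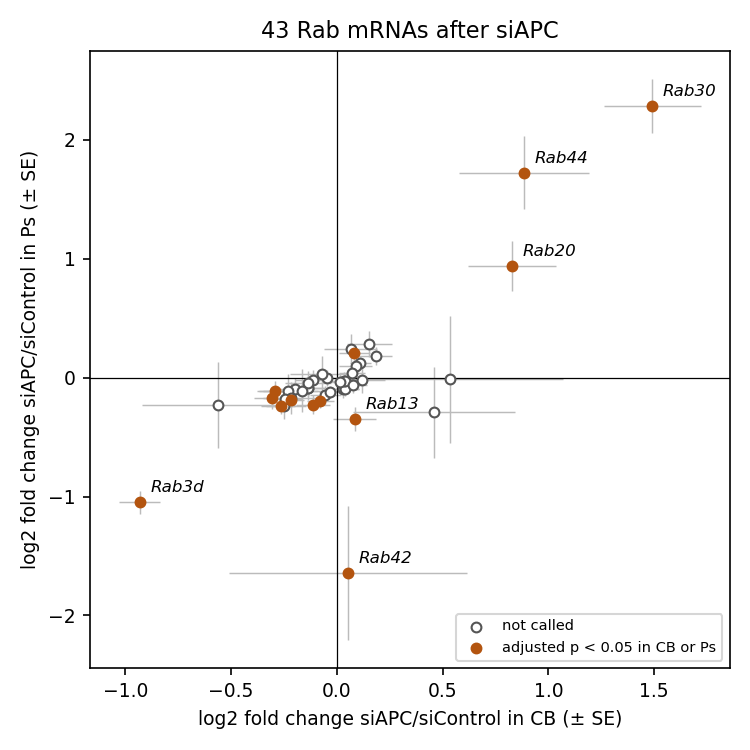
Log2 fold change of siAPC against siControl in CB (x axis) and in Ps (y axis) for the 43 Rab mRNAs, with bars for the SE of limma, filled where the adjusted p was below 0.05 in at least 1 fraction. Rab30 (1.49 and 2.29) and Rab3d (-0.93 and -1.05) lie at the ends of the diagonal, and Rab13 lies at 0.09 and -0.35.

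The mRNAs of Rab regulators were described from 4 lists of 109 different measured genes. In siControl Ps 20 of them were higher, against 29.1% of all genes, and 45 were lower, against 31.2%, with a median of -0.19. After the loess correction for GC content and length, which were corrected together, 38 were higher and 17 lower, against 27.3% and 27.2% of all genes. With libraries scaled to their listed reads, 6 were higher and 70 lower, against 15.4% and 47.6%. The counts by list and the values of single regulators that follow are as deposited, with 29.1% of all genes higher and 31.2% lower. For no single regulator is a value after the loess correction or the other scaling given here, so their directions may depend on the processing. Of 8 Rab chaperones and prenylation enzymes 3 rose (37.5%) and 2 fell (25.0%). Chm, the escort protein that presents new Rabs for prenylation, was highest at 1.13 (limma adjusted p = 0.0113), and Gdi2, a GDI that keeps Rabs soluble, followed at 1.01 (adjusted p = 1.48e-07). Rabggtb, the catalytic subunit of the Rab prenyltransferase, was at 0.58 and Rabggta, its partner subunit, at -0.79, both called.

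Of 31 measured GEFs 2 rose (6.45%) and 16 fell (51.6%) in siControl Ps. Ccz1, part of the GEF of Rab7, was highest at 0.71 (limma adjusted p = 1.55e-07) and Dennd6b, a DENN domain GEF, lowest at -2.04 (adjusted p = 5e-11). Rab3ip, a GEF of Rab8, rose by 0.45 (adjusted p = 4.56e-05). St5, also known as Dennd2b and a GEF of Rab13, fell by 0.58 (limma adjusted p = 2.15e-06) as deposited, the reverse of the direction of Rab13. St5 rose with siAPC by 0.38 in CB (adjusted p = 0.00182) and 0.48 in Ps (adjusted p = 0.000122). Of 35 GAPs, a list of mostly TBC domain proteins, 6 rose (17.1%) and 15 fell (42.9%), from Tbc1d24 at -1.20 (adjusted p = 9.51e-08) to Tbc1d19 at 0.64 (adjusted p = 0.000108).

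Of 35 effectors 9 rose (25.7%) and 12 fell (34.3%) in siControl Ps, near the shares of all genes. Fyco1, a Rab7 effector that links late endosomes to kinesin, was highest at 1.20 (limma adjusted p = 7.64e-08) and Rilp, a Rab7 effector that links them to dynein, lowest at -1.13 (adjusted p = 0.00449), with 2 to 27 reads. Micall2, the effector that Rab13 recruits to cell junctions, fell by 0.74 (adjusted p = 3.15e-05), and Micall1, its relative, fell by 0.46 (adjusted p = 9.93e-05). In siAPC Ps Micall1 was lower than in siControl Ps by 0.75 (adjusted p = 2.45e-06), while Micall2 gave -0.13 (adjusted p = 0.522). None of the 109 genes was called in the interaction, with 2 higher and 2 lower at an unadjusted p below 0.05, where 269 and 223 of the 13015 genes lay. Against siControl, 9 of the 109 rose (8.26%, against 7.52% of all genes) and 7 fell (6.42%, against 5.87%) in CB. In Ps 8 rose (7.34%, against 10.7%) and 12 fell (11.0%, against 11.2%), or 21 and 6 with libraries scaled to their listed reads (against 22.6% and 4.23%).

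**Figure D5:**
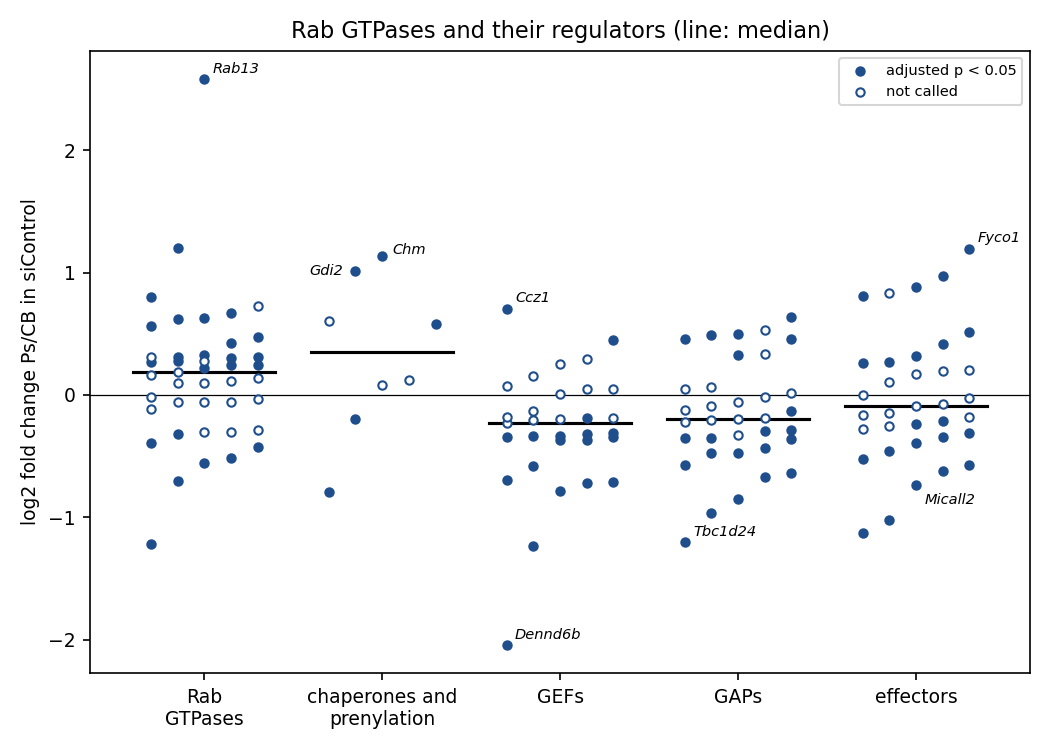
Log2 fold change of Ps against CB in siControl (y axis) for the Rab GTPases and for 4 lists of their regulators (x axis), with a point for each gene, filled where the adjusted p was below 0.05, and a line at the median. In these values as deposited, Rab13 at 2.58 is the highest point, Dennd6b at -2.04 the lowest, and most filled GEF points are below 0.

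The genes outside the family whose pattern was most like that of Rab13 were found among 10291 genes whose log2 values averaged 1 or more, by the root mean square difference over 16 libraries after each gene was centred on its own mean. Cplx2 was nearest, at 0.17, followed by 5730409E04Rik at 0.19, Net1 at 0.28, mt-Rnr1 at 0.30 and Cenpb at 0.30. Their Ps/CB values in siControl were 2.66, 2.52, 2.42, 2.56 and 2.26, and in siAPC 2.01, 1.89, 1.64, 2.21 and 1.55. These values come from the libraries that chose the genes, so their likeness is no test. The interactions ran from -0.77 for Net1 to -0.34 for mt-Rnr1, and that of 5730409E04Rik, at -0.63, was called (limma adjusted p = 0.0433). The nearest member of the family was Rab8b, at 0.82, at rank 788 of the 10291.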

How the data were processed

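The authors sequenced paired reads, aligned them to mm10 with STAR 2.4.2a and a GENCODE annotation, used Rsubread for counting, and applied limma-voom for normalization (limma 3.26.1, per the labels). The labels name a stranded total RNA kit and the methods a stranded mRNA kit. Whether strand was used in counting is not stated, so overlapping genes are uncertain. The deposited values are log2 CPM, the reads plus 0.5 relative to an effective library size. Inverting this gave whole reads for 100% of 208240 values at a tolerance of 0.01 reads, which supplied the read numbers.

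The main test was limma 3.58.1 (R 4.3.3), a linear model with a mean per group fitted to the log2 values as deposited over 16 libraries, with the eBayes trend option, and Benjamini-Hochberg adjustment over 13015 genes; a call is an adjusted p below 0.05. The differences between Rab13 and its relatives used exact two-sided permutation tests. The limma script was tested on simulated data. Positions, GC content, lengths and 3′UTRs came from GENCODE M21 (GRCm38), matched for 12874 genes, 12426 by symbol and 448 by an older symbol. All 43 members were matched, Rab1 as Rab1a. The authors used another GENCODE release. Levels per length divide by the principal transcript.

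Members and lists were chosen with earlier results of these data known. The text names Rab13, Rab8a, Rab8b and Rab10, members called in the interaction or changed more than 2-fold, the 3 highest and lowest in Ps/CB and in level, members changed by siAPC in both fractions, the extremes of each list with 6 fixed regulators, and the 5 genes most like Rab13. Other members are named as examples of their role, chosen after their values were seen. Chi-squared divided by its degrees of freedom ran from 2.06 to 28.2 between replicates, so no library was a copy of another. Read floors cover counting error only. One regulator and one sequence stretch are not reported here.

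Alternatives were scaling to listed reads, quantile normalization, a filter at a mean log2 of 1, a pseudocount of 2 reads, voom weights, a replicate block, a loess correction for GC content and length with and without that block, and leaving out the 4 libraries with a GC trend or each library. Replicate numbers come from the labels. Deviations of same-numbered libraries correlated at 0.42 to 0.62 between siAPC CB and siAPC Ps and at 0.16 to 0.55 between siControl Ps and siAPC Ps, so the numbers were taken to pair these libraries. The main fits and permutation tests hold no block, and the fit with it is an alternative. Between siControl CB and siControl Ps the lowest correlation was -0.12, and between the CB groups it was -0.34.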

Additional observations from a re-analysis of the deposited data

Results flagged for a closer look

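Of 172 combinations of a member and a group, 10 held a library whose gap to the next, as a share of the range of the 4 libraries, was above the 95% critical value of Dixon, and chance flags about 1 in 20 such groups. Of these, 3 were in siControl CB replicate 3, a library with low values for GC-rich genes. There Rab11a was at 5.72, with the others from 5.91 to 5.93, Rab12 at 6.48, with the others from 6.70 to 6.71, and Rab1b at 8.29, with the others from 8.53 to 8.56. Replicate 2 of the other groups, which also had low values for GC-rich genes, held 4 more. Rab1 was at 7.31 in siControl Ps replicate 2, above 7.13 to 7.14 in the others. Rab11b was at 7.52 in siAPC Ps replicate 2, below 7.75 to 7.76. Rab42 was at -4.89 there, from 0 reads, below -1.87 to -1.79. Rab20 was at 1.74 in siAPC CB replicate 2, above 1.49 to 1.53. In libraries without such low values, Rab21 was at 5.42 in siAPC Ps replicate 1, below 5.52 to 5.54, Rab40c at 5.80 in siAPC CB replicate 4, below 5.86 to 5.87, and Rab8a at 6.83 in siAPC Ps replicate 4, above 6.76 to 6.77. No value of Rab13 stood apart in this way. No member had all siControl pairs on one side of 0 and all siAPC pairs on the other.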

How the results depend on the processing

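Depth limits Rab30, Rab37, Rab42, Rab44, Rab17 and Rab27b, which the filter at a mean log2 of 1 left out. Rab13 kept its Ps/CB calls in all 25 alternatives, and of 63 called values of other members 20 kept direction and call in all alternatives that tested them. With the replicate block, regulators higher with siAPC in CB rose from 9 to 14. Where a count in this section lacks the share of all genes called under the same setting, it is no result about the members or regulators. Under that block (a sign-flip test over 4 pairs, which cannot pass) the shifts of Rab13 against Rab8a, Rab8b and Rab10 were 2.32, 1.78 and 2.27 in siControl and 1.91, 1.25 and 1.81 in siAPC, no longer called, and with the 4 GC-trend libraries left out (3 against 3, which cannot pass) they were 2.23, 1.67 and 2.12, and 1.90, 1.31 and 1.78, none called (adjusted exact permutation p = 0.15). Where the numbers pair the samples, the block ended the call of Rab42 in siAPC Ps/CB and added Rab30 there and Rab9 with siAPC in Ps, and changed no other call.

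With scaling to listed reads, members higher and lower in Ps numbered 7 and 18 in siControl and 9 and 12 in siAPC, those by the 2-fold rule 1 and 2 in siControl and 1 higher in siAPC, those lower with siAPC in CB 3, and those higher and lower with siAPC in Ps 10 and 1. Regulators numbered 6 higher and 70 lower in siControl Ps, and 21 and 6 with siAPC in Ps. Rab13 with siAPC in Ps was -0.18, and Rab11b, Rab2b, Rab5c, Rab7 and Rab8a in siControl turned to -0.077, -0.023, -0.053, -0.050 and -0.031. Quantile normalization gave 1 member above 2-fold in siAPC Ps and 3 lower with siAPC in Ps. The filter at a mean log2 of 1 gave 1 and 0 members by the 2-fold rule in each siRNA, and 1 higher with siAPC in CB and 2 in Ps. A pseudocount of 2 reads gave 0 lower by the 2-fold rule in each siRNA and 1 higher in siAPC.

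With the loess correction, in siControl and without or with the block, regulators higher in Ps numbered 38 and 44 and lower 17 and 18. In siAPC they numbered 36 and 38 higher and 15 and 17 lower, counts for which the share of all genes is not given here. Lower with siAPC they numbered 14 and 16 in CB and 21 and 24 in Ps, and with the block 14 were higher in Ps. These counts also stand without the share of all genes, so they are no result about the regulators. Members by the 2-fold rule were 0 lower in siControl and 1 higher in siAPC. Members lower with siAPC in CB were 8 without the block, and those higher there 4 with it, again without the share of all genes. Ps/CB turned to -0.085 for Rab1, -0.10 for Rab28 and 0.17 for Rab43 in siControl, and to -0.12 for Rab1, -0.039 for Rab11a, -0.27 for Rab28, 0.072 for Rab43 and -0.23 for Rab5a in siAPC, with and without the block. With the 4 GC-trend libraries left out, 0 members were lower by the 2-fold rule in siAPC and 1 was higher with siAPC in CB.

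Leaving out single libraries gave 0 to 1 members lower by the 2-fold rule in each siRNA and 1 to 2 higher in siAPC. Lower with siAPC were 2 to 6 members in CB and 3 to 7 in Ps, and 4 to 9 regulators in CB. Rab13 with siAPC in Ps ran from -0.43 to -0.25. Its interactions ran from -0.55 to -0.30 against Rab8a, -0.71 to -0.32 against Rab8b and -0.59 to -0.38 against Rab10. Beyond what these alternatives change by construction, the causes were not tested.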
